A study of Mus musculus with 9 samples.

Results

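Hexim1, Hexim2, Cdk9, Ccnt1, Ccnt2, Larp7 and Mepce encode the proteins that hold, or are held by, the 7SK particle, a nuclear store of the elongation kinase P-TEFb. These 7 genes, out of 31052 gene symbols in the deposited table, were taken by name as the HEXIM, P-TEFb and 7SK particle genes, and they were chosen with their levels in the libraries already known. Their differences between groups are therefore given as descriptions, without a test. Nuclear RNA of pyramidal cells of the mouse hippocampus was sequenced in 5 libraries of place cells and 4 libraries of silent cells. Both classes were assigned by in vivo two-photon imaging during spatial navigation, after which the nuclei were tagged with light and collected. All libraries carry the genotype label WT, and the kit named in the labels, SMART-Seq mRNA LP, starts from polyadenylated RNA. No source used here gives the strain, age, sex or number of nuclei behind a library. Each title carries its own mouse designation with a number that the labels do not explain, and they do not say whether each library is a separate animal, so any p-value measures the spread between these libraries.

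After initiation, RNA polymerase II pauses close to the start of many genes, and P-TEFb, made of the kinase CDK9 and a T-type cyclin, releases it into productive elongation. A large part of P-TEFb is kept inactive in a particle built on the noncoding 7SK RNA, in which MEPCE caps and LARP7 binds the RNA, and a HEXIM protein, HEXIM1 or HEXIM2, inhibits the kinase. In neurons, release of paused polymerase is one of the steps through which activity-dependent genes are transcribed.

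HEXIM1 and HEXIM2 are paralogs that lie side by side on chromosome 11, and CCNT1 and CCNT2 are paralogs on chromosomes 15 and 1. Because the levels below rest on telling each pair apart, the longest stretch of identical bases shared by the coding sequences of each pair is shown in capitals, with the bases on either side in lower case, 5′ to 3′, from the GENCODE M21 transcripts of the GRCm38 build. The shared run was 14 bases for the HEXIM pair and 20 bases for the cyclin pair. No source used here gives the read length.
Hexim1: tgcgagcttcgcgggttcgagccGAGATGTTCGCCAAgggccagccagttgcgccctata
Hexim2: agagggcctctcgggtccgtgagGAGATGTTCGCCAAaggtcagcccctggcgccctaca
Ccnt1: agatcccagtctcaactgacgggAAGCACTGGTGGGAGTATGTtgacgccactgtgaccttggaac
Ccnt2: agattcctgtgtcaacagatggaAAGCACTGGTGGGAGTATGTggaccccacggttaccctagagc

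Levels are in RPM, the reads of a gene per 1000000 recovered reads of its library, which scales every library to a common total. Counted in 1000000 reads, totals ran from 15.3 to 21.9 in place libraries and from 14.0 to 22.3 in silent libraries. Pyramidal neuron markers summed to 3534 ± 469 RPM in place libraries (SD, n = 5) and to 3492 ± 518 in silent libraries (SD, n = 4). Of 14139 genes tested, 38.4% had no reads in at least 1 library, so a gene at 0 in single libraries was common. By limma with Benjamini-Hochberg adjustment, 0 of 14139 genes passed an adjusted p of 0.05 (0.0%), while 771 had an unadjusted p under 0.05, a share of 5.45%. Voom with limma also called 0 genes.

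Hexim2 was almost undetected in place libraries and present in every silent library. Its reads numbered 0, 0, 4, 0 and 0 in place replicates 1 to 5, against 310, 290, 157 and 323 in silent replicates 1 to 4. In RPM these were 0, 0, 0.211, 0 and 0 in place libraries, against 22.1, 14.5, 9.65 and 14.5 in silent libraries. The groups did not overlap, and the lowest silent library stood far above the highest place library. Among all tested genes, 87 (0.615%) had every place library below every silent one. By counting error alone, a library with no reads has a limit of 3 reads, which came to between 0.137 and 0.197 RPM in the 4 place libraries without any. The means were 0.0423 ± 0.0945 RPM in place libraries (SD, n = 5) and 15.2 ± 5.16 RPM in silent libraries (SD, n = 4). On the log2(RPM + 1) scale, Hexim2 was lower in place by a difference of -3.91 ± 0.83 (SE). Here and below, the SE of a log2 difference is the moderated one of limma, which draws partly on the spread of all tested genes. For Hexim2, whose libraries lay close together within each group on this scale, it comes mostly from the other genes. That SE is therefore not the spread of Hexim2 between libraries. The size of the Hexim2 difference depends on the pseudocount, since most place libraries hold no reads. Hexim2 passed the filter on low values only through the silent libraries.

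Hexim2 was 1 of 8 genes, 0.0566% of those tested, with reads in 4 of 4 silent libraries and in at most 1 of 5 place libraries. This pattern was set with the values of Hexim2 known and is its own. The share is thus a description and does not measure how unusual Hexim2 is. The reverse pattern, reads in 5 of 5 place libraries and at most 1 of 4 silent libraries, was met by 161 genes, or 1.14%. The counts of 8 and 161 cannot be compared directly, because the filter and the unequal group sizes treat the patterns differently. To be tested, a gene read only in silent libraries had to reach 1 RPM in 4 of 4. A gene read only in place libraries had to reach it in 4 of 5. The part of the filter and the group sizes in the count of 8 was not tested. Genes at 0 were not confined to place libraries. Between 2.69% and 12.1% of the tested genes had no reads in single place libraries, and between 6.27% and 19.9% in single silent libraries. In these bulk samples, fewer nuclei that carry a transcript and less of it per nucleus cannot be told apart. Reads were amplified and carry no molecular identifiers that the sources mention, so intervals and limits cover counting error only.

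Hexim1, which encodes the first described P-TEFb inhibitor of the pair, was present in all 9 libraries. It stood at 49.1, 56.8, 103, 66.5 and 6.60 RPM in place replicates 1 to 5, against 34.3, 18.6, 43.3 and 36.0 RPM in silent replicates 1 to 4. Place libraries 1 to 4 were all above the silent libraries, and place replicate 5 was below all of them, so the groups overlapped. The means were 56.3 ± 34.6 RPM in place (SD, n = 5) and 33.1 ± 10.4 RPM in silent libraries (SD, n = 4), a log2 difference of 0.41 ± 0.69 (SE). Without place replicate 5 the difference was 1.04, and without place replicate 3 it was 0.10.

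**Figure D1:**
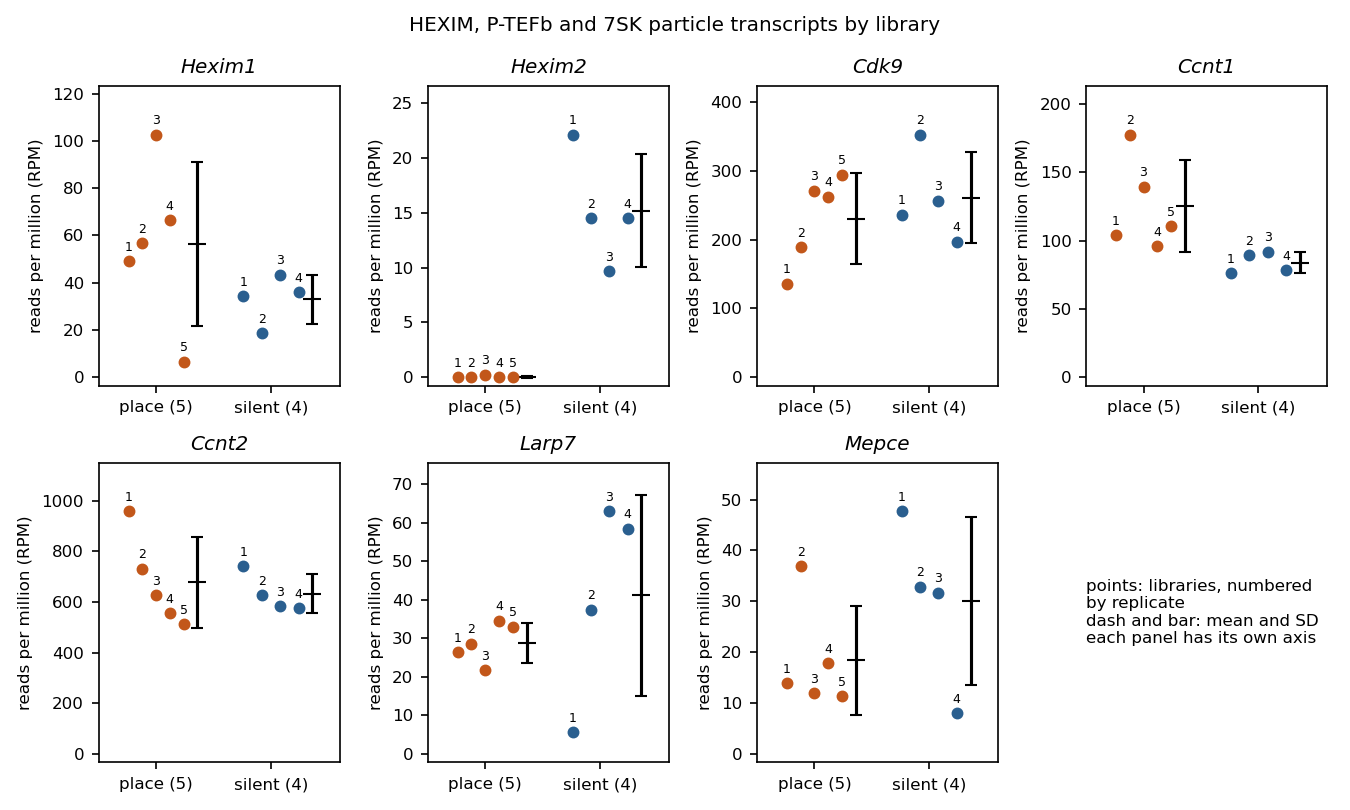
Level in RPM (vertical axis, a separate linear scale in each panel) of the 7 genes in 5 place and 4 silent libraries; points are libraries labelled by replicate number, and the dash and bar to their right are the mean and SD. Hexim2 stands at 0.211 RPM or less in every place library and at 9.65 or more in every silent library, Ccnt1 is higher in every place library, and the other 5 genes overlap.

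Counted within the HEXIM pair, where both genes come from the same library and depth cancels, Hexim2 made up a different part of the reads in the 2 groups. In place libraries its share was 0% of 749 reads, 0% of 971, 0.205% of 1948, 0% of 1459 and 0% of 124. In silent libraries it was 39.2% of 790 reads, 43.7% of 663, 18.2% of 862 and 28.7% of 1125. Exact Clopper-Pearson 95% intervals of these shares cover counting error within a library and are not a test between the groups. Their highest upper bound in a place library was 2.93%, in replicate 5, which had the fewest HEXIM reads. The lowest lower bound in a silent library was 15.7%, in replicate 3. The mean share was 0.0411 ± 0.0918% in place libraries (SD, n = 5) and 32.5 ± 11.4% in silent libraries (SD, n = 4). Summed over both genes, HEXIM reads came to 56.4 ± 34.7 RPM in place libraries and 48.2 ± 10.4 RPM in silent libraries, and these sums overlapped. Hexim1 gave nearly every HEXIM read in place libraries, while both genes gave reads in silent libraries.

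**Figure D2:**
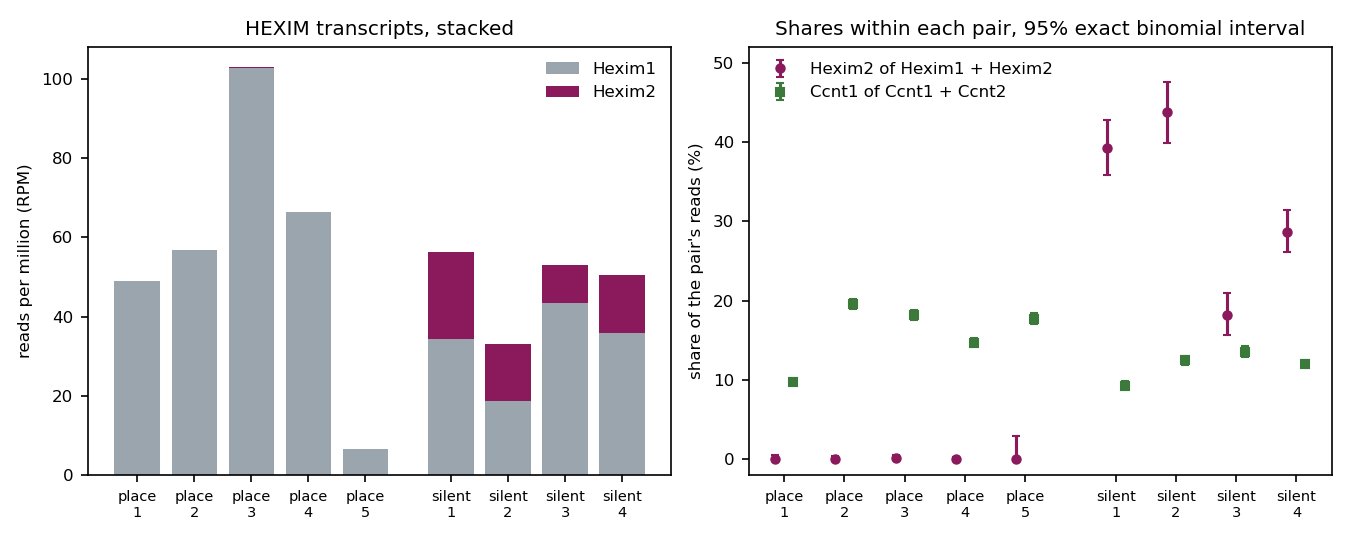
Left, RPM of Hexim1 and Hexim2 stacked for each library (linear axis from 0); right, the share of Hexim2 in the reads of the HEXIM pair and of Ccnt1 in those of the cyclin pair, in percent, with exact 95% binomial intervals that cover counting error only. The Hexim2 share is 0.205% or less in all 5 place libraries and 18.2% or more in all 4 silent libraries, while the Ccnt1 shares of the groups overlap.

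The genes beside Hexim2 were present in both groups. In GENCODE M21, Acbd4, Hexim1, Hexim2 and Fmnl1 follow one another on the same strand of chromosome 11, and no annotated gene overlaps Hexim1 or Hexim2. Acbd4, which encodes an acyl-CoA-binding domain protein, averaged 38.7 ± 13.0 RPM in place and 38.3 ± 11.4 RPM in silent libraries. Fmnl1, which encodes a formin that acts on actin, averaged 66.6 ± 14.3 RPM in place and 51.4 ± 24.7 RPM in silent libraries (SD, n = 5 and n = 4). Both overlapped between the groups, so among these 4 neighbours Hexim2 alone separated them.

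Cdk9, the catalytic subunit of P-TEFb, was similar in the 2 groups. It stood at 136, 189, 271, 263 and 295 RPM in place replicates 1 to 5, against 236, 353, 257 and 197 RPM in silent replicates 1 to 4. The highest value was in a silent library and the lowest in a place library, and the ranges overlapped over most of their width. The means were 231 ± 66.2 RPM in place (SD, n = 5) and 261 ± 66.3 RPM in silent libraries (SD, n = 4), a log2 difference of -0.20 ± 0.28 (SE).

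Ccnt1, which encodes cyclin T1, was the other gene whose groups did not overlap, and it was higher in place. It stood at 104, 178, 139, 95.7 and 110 RPM in place replicates 1 to 5, against 75.9, 89.2, 91.7 and 78.2 RPM in silent replicates 1 to 4. The gap was narrow, between place replicate 4 and silent replicate 3, and with the values as deposited the groups overlapped. The means were 125 ± 33.5 RPM in place (SD, n = 5) and 83.7 ± 7.84 RPM in silent libraries (SD, n = 4), a log2 difference of 0.54 ± 0.32 (SE). Every place library was above every silent one in 173 (1.22%) of the tested genes. The annotated antisense gene 9330020H09Rik overlaps Ccnt1, and because the strand setting is not given, reads of the 2 genes may not be told apart. Its own column averaged 0.840 ± 1.19 RPM in place and 2.71 ± 4.76 RPM in silent libraries.

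Ccnt2, which encodes cyclin T2, had the most reads of the 7 genes. It stood at 960, 732, 627, 555 and 512 RPM in place replicates 1 to 5, against 742, 626, 584 and 576 RPM in silent replicates 1 to 4. The place libraries held both the highest and the lowest value and enclosed all the silent ones. The log2 difference was 0.07 ± 0.21 (SE), and without place replicate 1 it was -0.07. Within the cyclin pair, Ccnt1 gave 9.75, 19.5, 18.2, 14.7 and 17.7% of the reads in place replicates 1 to 5, against 9.27, 12.5, 13.6 and 12.0% in silent replicates 1 to 4. Place replicate 1 lay within the silent range and the other 4 place libraries above it, with means of 16.0 ± 3.90% in place (SD, n = 5) and 11.8 ± 1.82% in silent libraries (SD, n = 4).

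Larp7, which encodes the La-related protein that binds and stabilises 7SK, differed most among the silent libraries. It stood at 26.4, 28.6, 21.7, 34.5 and 33.0 RPM in place replicates 1 to 5, against 5.64, 37.4, 63.1 and 58.5 RPM in silent replicates 1 to 4. All 5 place libraries fell between silent replicate 1 and the other 3 silent libraries. The means were 28.9 ± 5.18 RPM in place (SD, n = 5) and 41.1 ± 26.2 RPM in silent libraries (SD, n = 4). The log2 difference was -0.09 ± 0.70 (SE), and it was -0.84 without silent replicate 1 and 0.25 without silent replicate 3. Its direction thus rested on single libraries.

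Mepce, which encodes the enzyme that methylates the 5′ end of 7SK, was the least abundant after Hexim2 by RPM. It stood at 13.9, 36.9, 11.9, 17.8 and 11.3 RPM in place replicates 1 to 5, against 47.8, 32.8, 31.7 and 7.94 RPM in silent replicates 1 to 4. In each group 1 library went the other way, place replicate 2 being high and silent replicate 4 low, so the groups overlapped. The means were 18.4 ± 10.7 RPM in place (SD, n = 5) and 30.0 ± 16.5 RPM in silent libraries (SD, n = 4), a log2 difference of -0.58 ± 0.78 (SE). The difference was -1.10 without silent replicate 4 and -0.29 without silent replicate 1.

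Per kilobase of annotated exon (GENCODE M21), the levels of the 7 transcripts spanned a wide range. In place libraries the order from high to low was Ccnt2 at 54.9 ± 14.5 RPM per kb, Cdk9 at 50.0 ± 14.4, Hexim1 at 16.1 ± 9.89, Ccnt1 at 13.7 ± 3.66, Larp7 at 12.2 ± 2.19, Mepce at 5.17 ± 3.01 and Hexim2 at 0.0178 ± 0.0398 (SD, n = 5). In silent libraries it was Cdk9 at 56.6 ± 14.4 RPM per kb, Ccnt2 at 51.2 ± 6.22, Larp7 at 17.4 ± 11.1, Hexim1 at 9.46 ± 2.97, Ccnt1 at 9.15 ± 0.856, Mepce at 8.46 ± 4.63 and Hexim2 at 6.40 ± 2.17 (SD, n = 4). Cdk9 and Ccnt2 did not differ from each other beyond their spread in either group. Neither did the neighbours from Hexim1 to Larp7 in place libraries, nor those from Larp7 to Hexim2 in silent libraries. Exon length counts every annotated isoform, which may differ from the transcripts present.

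The 7 genes also varied to different degrees over all 9 libraries. The coefficient of variation of the RPM was 20.8% for Ccnt2, 26.2% for Cdk9, 30.5% for Ccnt1, 51.5% for Larp7, 59.5% for Mepce, 61.1% for Hexim1 and 127% for Hexim2. For Hexim2 this spread includes the difference between the groups, and within the silent libraries its coefficient was 34.0%. Within place libraries Larp7 had the lowest coefficient, 18.0%, and within silent libraries the highest, 63.6%, while Ccnt1 had 26.8% in place and 9.36% in silent libraries. Of the 7 genes, 3 had a positive and 4 a negative log2 difference, with a median of -0.09. Over all 14139 genes tested the median was 0.13, with 8122 positive and 6017 negative.

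The wider elongation machinery was described by a list of 54 other gene symbols in 8 roles, of which 52 could be tested. None of the 52 passed the threshold (limma, adjusted p of 0.891 or more). At an unadjusted p under 0.05, 1 was higher and 0 were lower in place, where 586 (4.14%) of all tested genes were higher and 185 (1.31%) lower. Of the 52, 29 had a positive and 23 a negative log2 difference, and their median was 0.08 beside 0.13 over all genes. Ell3 could not be tested because its reads were not recovered, and Wdr61 is the older symbol of Skic8, which is in the list and was tested.

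Cdc73 was the 1 gene among these 52 whose groups did not overlap, and also the 1 with an unadjusted p under 0.05. Set against the 1.22% of all tested genes with every place library higher and the 0.615% with every one lower, 1 of 52 is near the background and is given only as an example. Cdc73, which encodes a subunit of the polymerase-associated PAF1 complex, stood at 165, 145, 286, 133 and 178 RPM in place replicates 1 to 5, against 99.7, 88.2, 101 and 90.1 RPM in silent replicates 1 to 4. Every place library was higher than every silent one, and the silent libraries were close together. Its means were 181 ± 61.0 RPM in place and 94.7 ± 6.41 RPM in silent libraries, a log2 difference of 0.88 ± 0.30 (SE; limma, Benjamini-Hochberg adjusted p = 0.891).

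In the other roles the gene with the smallest p in each is given as an example, and none passed the threshold. The 7SK RNA gene itself, Rn7sk, had 1.44 ± 1.49 RPM in place and 0.941 ± 0.860 RPM in silent libraries. The 7SK RNA has no poly(A) tail, so these libraries, which select polyadenylated RNA, are not a measure of it. Among 10 tested genes of the super elongation complex, which carries active P-TEFb to genes, 6 had a positive log2 difference and the median was 0.21. Aff3, a scaffold of that family, averaged 46.5 ± 25.2 RPM in place and 74.7 ± 20.4 RPM in silent libraries (log2 difference -0.86 ± 0.54 SE; limma adjusted p = 0.896), and without place replicate 1 the difference was -0.44. For the 5 BET and P-TEFb release genes the median was -0.19. Of these, Ppm1g, a phosphatase that acts in release from 7SK, averaged 63.7 ± 30.6 RPM in place and 91.2 ± 22.8 RPM in silent libraries (log2 difference -0.68 ± 0.48 SE; limma adjusted p = 0.899), and without place replicate 3, which held 17.4 RPM, the difference was -0.28.

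The pausing factors DSIF and NELF had 5 of 6 genes with a positive log2 difference and a median of 0.25. Supt5, the large DSIF subunit, averaged 85.0 ± 25.3 RPM in place and 67.0 ± 27.2 RPM in silent libraries, a log2 difference of 0.42 that was 0.037 without silent replicate 1. The PAF1 complex had 3 of 6 genes positive and a median of -0.03. The other transcription kinases and cyclins had 5 of 6 positive and a median of 0.34. Cdk7, the kinase of TFIIH, averaged 42.6 ± 16.5 RPM in place and 37.5 ± 35.9 RPM in silent libraries. Its log2 difference of 1.23 ± 0.97 (SE; limma adjusted p = 0.902) rested on silent replicate 4, which held 0.0448 RPM, and without that library it was -0.13. The elongation and histone chaperone factors had 2 of 6 positive and a median of -0.13. Supt16, a subunit of the histone chaperone FACT, averaged 12.8 ± 13.3 RPM in place and 2.56 ± 3.54 RPM in silent libraries, with no reads in silent replicates 1 and 4 (log2 difference 1.80 ± 1.14 SE; limma adjusted p = 0.896). The RNA polymerase II core subunits had 6 of 12 positive and a median of -0.10. Polr2c, a core subunit, averaged 34.1 ± 20.4 RPM in place and 62.3 ± 32.2 RPM in silent libraries, a log2 difference of -0.87 that was -0.54 without place replicate 1.

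**Figure D3:**
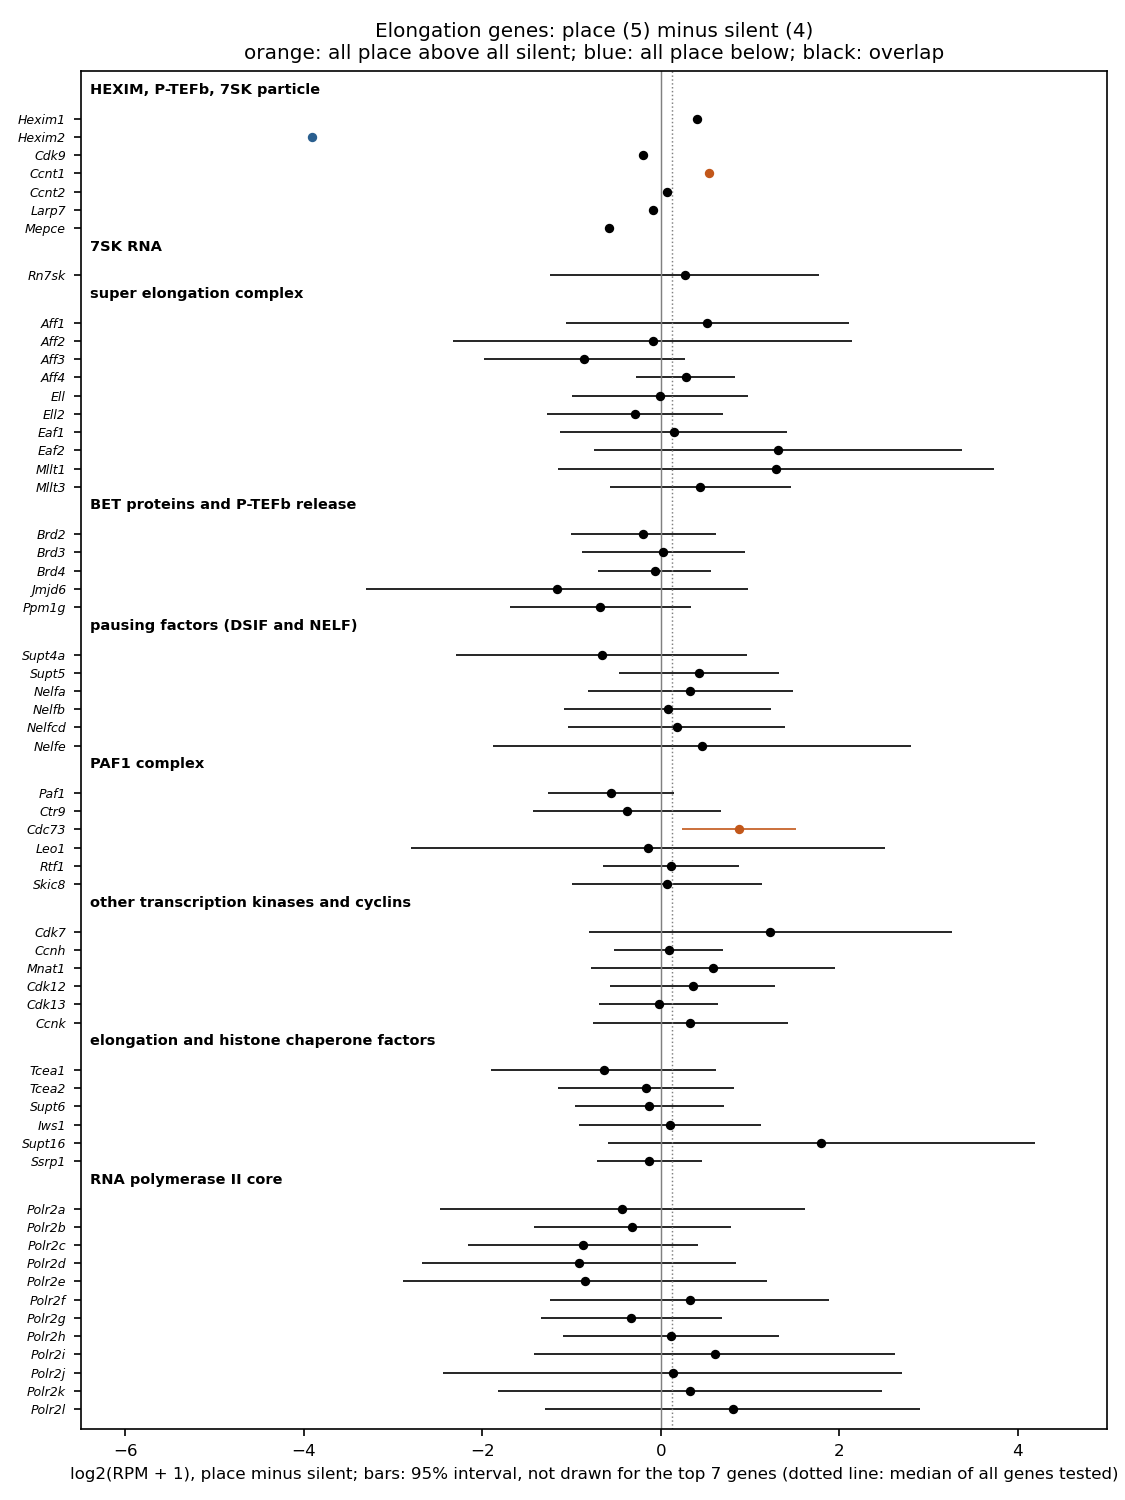
Difference in log2(RPM + 1), place minus silent (horizontal axis), for the 7 genes and, with 95% intervals from limma, 52 other elongation genes grouped by role; the solid line is 0 and the dotted line the median of all genes tested, 0.13. Orange marks Ccnt1 and Cdc73, where every place library was higher, blue marks Hexim2, where every place library was lower, and of the 52 intervals drawn, every one except that of Cdc73 includes 0.

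The genes whose levels were most like those of Hexim2 were taken by Pearson's r of log2(RPM + 1) over the 9 libraries. These libraries share their depth and makeup, and any gene that separates the 2 groups scores high by this measure. Among the highest were Ldb2 (r = 0.961), Chaf1a (r = 0.924), Gabra2 (r = 0.921) and Cdh11 (r = 0.912). Ldb2, a cofactor of LIM-domain transcription factors, was at 0.655, 1.99, 1.85, 2.64 and 0 RPM in place replicates 1 to 5, against 55.6, 26.5, 18.0 and 19.8 RPM in silent replicates 1 to 4. It was low in place libraries but had reads in 4 of 5, where Hexim2 had reads in 1 of 5. Ldb2 was highest in silent replicate 1, as were Hexim2, Chaf1a, Gabra2 and Cdh11, which the choice by r favours. Chaf1a, the large subunit of a histone chaperone that acts in replication, averaged 0.566 ± 0.851 RPM in place and 5.80 ± 1.58 RPM in silent libraries. Gabra2, a GABA-A receptor subunit, averaged 344 ± 34.1 RPM in place and 535 ± 89.2 RPM in silent libraries. Cdh11, a cadherin, averaged 150 ± 26.7 RPM in place and 283 ± 21.0 RPM in silent libraries (SD, n = 5 and n = 4 throughout). Gabra2 and Cdh11 were well detected in both groups, unlike Hexim2.

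Other measures of the libraries moved with the groups, and their part in the levels of Hexim2 was not tested. Transcripts of the Y-linked genes Eif2s3y, Uty and Kdm5d summed to 774 RPM in place replicate 1, to 0.264 RPM or less in the other 4 place libraries, and to between 524 and 974 RPM in the silent libraries. All 4 silent libraries and place replicate 1 held Y-linked transcripts (exact permutation test of group means, two-sided, p = 0.0317, adjusted p = 0.218 over 11 measures), and Xist was highest in the other 4 place libraries (p = 0.0397, adjusted p = 0.218 by the same exact test). Place replicate 1, with Y-linked transcripts like those of silent libraries, had 0 Hexim2 reads. That is 1 library, so the group and the Y-linked level cannot be told apart here. Silent replicate 1, which held both Y-linked transcripts and Xist at 318 RPM, had the highest Hexim2 level.

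Oligodendrocyte markers summed to between 162 and 3076 RPM in place libraries and between 120 and 540 RPM in silent libraries, with 7 of 7 markers higher on average in place (exact permutation p = 0.127, adjusted p = 0.314). Place replicates 4 and 5, at 287 and 162 RPM, lay within the silent range of this sum and also had 0 Hexim2 reads. Opalin, 1 of the 7 markers, was at 0.0912 to 79.0 RPM in place libraries and at 0.0714 RPM or less in silent libraries. It too did not overlap between the groups, in the other direction, as for 1.22% of tested genes. The gap was narrow, since its lowest place value and its highest silent value both lay under 3 reads. Astrocyte markers summed to 421 ± 709 RPM in place and 175 ± 162 RPM in silent libraries, and interneuron markers to 125 ± 82.4 RPM in place and 167 ± 128 RPM in silent libraries. Microglial markers summed to 67.6 ± 82.7 RPM in place and 71.0 ± 85.0 RPM in silent libraries, those of oligodendrocyte precursors to 32.0 ± 42.6 RPM in place and 57.3 ± 73.6 RPM in silent libraries, and endothelial markers to 9.54 ± 8.97 RPM in place and 2.49 ± 2.73 RPM in silent libraries (SD, n = 5 and n = 4). None of these sums passed the threshold (exact permutation test, adjusted p of 0.314 or more). Genes detected numbered 18603 ± 1936 in place (SD, n = 5) and 16091 ± 1606 in silent libraries (SD, n = 4; exact permutation p = 0.0952, adjusted p = 0.314). Place replicate 2 had the most genes detected, 20990, and silent replicate 1 the fewest, 14176. With 5 against 4 libraries the smallest possible p was 0.00794, which after adjustment would be 0.0873 for a single such measure.

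**Figure D4:**
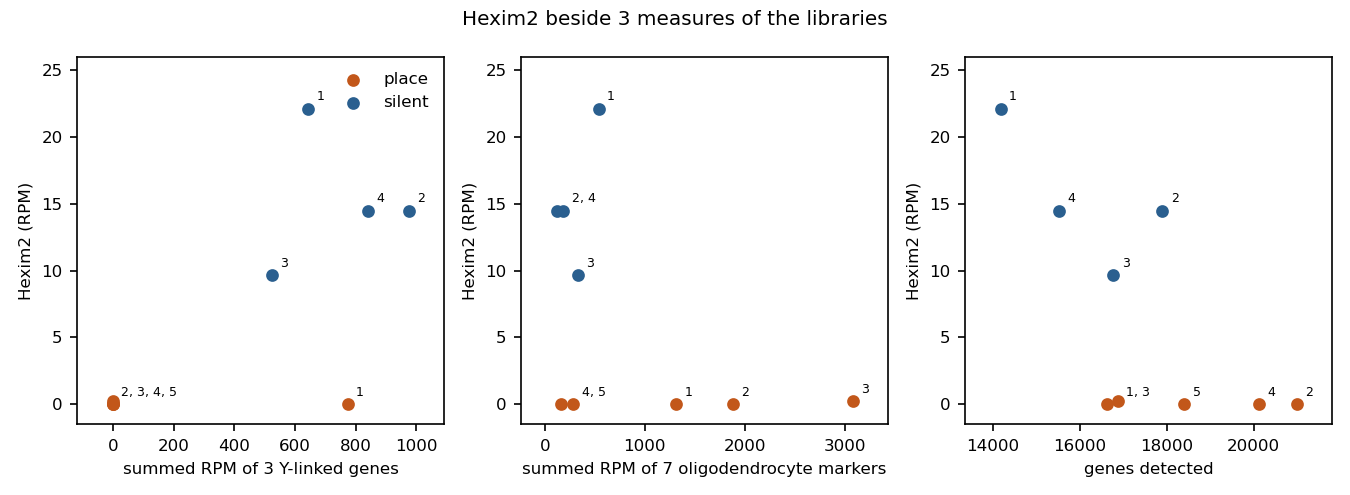
Hexim2 level in RPM (vertical axis) against the summed RPM of 3 Y-linked genes, the summed RPM of 7 oligodendrocyte markers and the number of genes detected (horizontal axes, linear), for 5 place and 4 silent libraries labelled by replicate number. Place replicate 1 lies within the silent range of the Y-linked sum, and place replicates 4 and 5 within that of the oligodendrocyte sum, each with 0 RPM of Hexim2. The part of these measures in the level of Hexim2 was not tested.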

How the data were processed

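Nuclear RNA libraries of 5 place and 4 silent cell samples were analysed, grouped by their titles. The deposited values are a read signal per gene, normalized by the authors in a way that no source used here describes. STAR, HTSeq and the build GRCm39 are named in the submitters' processing notes, without versions, and neither annotation nor strand setting is given. Within a gene, the deposited values were whole multiples of 1 step shared by the 9 libraries. Dividing by the step gave whole reads for 23915 of 31052 genes, within a tolerance of 0.05 of a read, and for all 7 genes described here within 0.000174. A check used 8894 genes with reads in all 9 libraries. In 8877 of them (99.8%) the step matched a TMM factor computed per gene against Ezh2, within 0.01 on the log2 scale. No label states this scaling. For genes with reads in some smaller numbers of libraries the step did not match this factor, for a reason not known. Their reads therefore lack this check, and such genes occur in the wider list and among the markers. Hexim2, with reads in 5 libraries, was outside the check of 8894 genes, but its step and those of the other genes of the 7 matched. Genes not recovered held at most 0.0713% of a library's signal.

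Reads were divided by the library's recovered total and expressed per 1000000 reads (RPM). Genes with at least 1 RPM in at least 4 libraries were kept. The test was limma 3.58.1 (R 4.3.3) with a mean-variance trend on log2(RPM + 1), without covariates, and p-values were adjusted by Benjamini-Hochberg over 14139 genes. Fold changes on this scale understate those of low genes. The fit and the recovery of reads were tested on simulated data. Library measures were compared by exact permutation over 126 splits. GENCODE M21 of GRCm38 gave gene order, exon lengths and transcripts, matched by symbol, and no coordinates are printed because the builds differ.

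The members and lists were chosen with earlier results of these data known. The text names the 7 genes, in each role of the wider list the gene with the smallest p, 4 of the 5 genes most correlated with Hexim2 apart from predicted-model symbols, and markers of cell types. The neighbours of Hexim2, the antisense gene at Ccnt1 and Skic8 fall outside that rule and were chosen after values were seen. For 1 gene that these rules also take, results are not reported here, and it was left out of the counts of its list.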

Additional observations from a re-analysis of the deposited data

Results flagged for a closer look

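In 4 of 38 groups of libraries examined, 1 library stood far from the others by Dixon's criterion. Chance alone would flag about 1 in 20 groups of normally distributed values. Many of the groups belong to genes chosen by their values here, and some, as Chaf1a in place libraries, lie near 0. That rate is therefore not a strict reference for them. Hexim2 in place replicate 3 was at 0.211 RPM, while the other 4 place libraries were at 0. With those at 0 any read would be flagged, so the rate of 1 in 20 does not apply to this group. Mepce in place replicate 2 was at 36.9 RPM, while the other place libraries lay between 11.3 and 17.8. Chaf1a in place replicate 4 was at 2.05 RPM, while the other place libraries were at 0.459 or less. Chaf1a in silent replicate 3 was at 3.44 RPM, while the other silent libraries lay between 6.40 and 6.78.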

How the results depend on the processing

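No gene passed the threshold without a filter on low values (23915 tested) or, among 14139 tested, under TMM-scaled depth, the values as deposited, a pseudocount of 0.1, voom, a term for genes detected, or TMM-scaled deposited values, the last chosen after seeing the data. Leaving out each library in turn gave between 0 and 1 gene. The 1 gene was Eif2s3y, Y-linked, without place replicate 1 (limma, adjusted p = 4.43e-06). For the wider elongation genes the count was 0 throughout, also when each library was left out. The number of the 7 genes whose groups did not overlap was 2, and it was 1 with the values as deposited, where Ccnt1 overlapped. Of all tested genes, 1.22% had every place library higher and 0.615% every place library lower in the main setting. Leaving out single libraries gave between 2 and 3 of the 7 genes. With fewer libraries any gene separates more easily, and the share over all genes was not computed for these alternatives. The log2 difference of Hexim2, -3.91, was -9.46 with the values as deposited, -6.87 with a pseudocount of 0.1, -8.40 by voom and -9.52 with TMM-scaled deposited values. Each of these settings adds a smaller amount to a library with no reads. Leaving out single libraries gave between -4.09 and -3.72. The log2 difference reversed for Rn7sk without place replicate 1 (-0.035; 0.50 at most without 1 library), Supt5 with genes detected in the fit (-0.21) and Cdk7 without silent replicate 4 (-0.13; 2.00 at most), and none of these passed the threshold. Over 16 alternatives, 5 of the 7 genes kept their direction in all, Ccnt2 in 15 and Larp7 in 12. With genes detected in the fit, the median difference of all genes was -0.03 in place of 0.13. The planned edgeR test was not run because the deposited unit is a signal, and the recovered reads could not be checked against deposited counts. Voom on the recovered reads was run in its place. No paired analysis was possible because the titles share no replicate number between groups. By counting error alone, a place library with no Hexim2 reads has a limit of 0.197 RPM or less, and loss of transcripts before sequencing is not covered.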
